A study of Mus musculus with 9 samples.

Results

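Leukaemic cells must obtain amino acids and folate-bound carbon units either by making them or by importing them, and 35 genes of these routes are described here: 21 enzymes of amino acid synthesis and one-carbon metabolism and 14 plasma membrane amino acid transporters. They were chosen by gene symbol and not by level, but with earlier results of these data known. All 35 were found among the 55291 symbols counted in each library. The study made low-input RNA libraries from Trp53(R172H/delta) mouse cells of acute myeloid leukaemia (AML), in which one allele of the tumour suppressor p53 carries a missense change and the other is deleted. The 3 groups were cells out of the lungs of recipient mice labelled WT, cells out of the bone marrow of WT recipients, and cells grown in vitro, with 3 libraries each and the same genotype throughout. The labels give neither the recipients' age, how the cells were isolated, the culture medium, nor whether the replicates of a group came from separate mice, cultures or clones, so p-values measure only the spread between these libraries, which may be technical.

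Serine is made from a glycolytic intermediate by Phgdh, Psat1 and Psph. Its side carbon is passed to folate by serine hydroxymethyltransferases, Shmt1 in the cytosol and Shmt2 in mitochondria, and is then oxidised or reduced by the Mthfd enzymes to supply purine, thymidylate and methionine synthesis. Proline, asparagine, alanine, aspartate and cysteine are made by other short routes from glutamate, aspartate, pyruvate and methionine. Many of these genes, together with several transporters, are known targets of the transcription factor ATF4, which is translated when amino acids are scarce or the endoplasmic reticulum is stressed. Amino acid transporters include exchangers, sodium-driven importers and facilitated carriers, and the light chains of the SLC7 family that sit on the heavy chain Slc3a2 (4F2hc) need it to reach the membrane.

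The ATF4 element of such genes is often written TGATGNAA. The stretches below show where those letters occur before the RefSeq transcription start (GRCm38.p6) of 5 members, written 5′ to 3′ on the strand of the gene, with the match in capitals on either strand. These 5 are all the members with a match among those with promoter sequence on hand, whatever their change. All 5 were lower in both tissues than in culture, as were most of the tested members. Slc7a7 has a second listed start, and the stretch with its match, at chr14:54417927-54417952, is not printed. The Asns stretch lies before its RefSeq start but inside the span of the gene in GENCODE M21 (GRCm38), which ends at 7693254, so it may be transcribed in some isoforms. In Slc7a11 the matches lie 66 to 59 and 47 to 40 bases before the start.
Slc7a11, chr3:50443642-50443690, minus strand: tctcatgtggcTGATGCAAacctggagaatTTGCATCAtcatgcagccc
Asns, chr6:7693214-7693243, minus strand: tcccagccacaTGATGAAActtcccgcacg
Pycr1, chr11:120643833-120643862, minus strand: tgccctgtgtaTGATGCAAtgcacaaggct
Got1, chr19:43524689-43524718, minus strand: cattgcattggTTGCATCAtacaagcctcc
Slc7a7, chr14:54418067-54418096, minus strand: ccgcttgggctTGATGAAAggttcactggg
Promoter windows of 250 bases before the start were on hand for 29 members, and 5 of them held TGATGNAA on either strand, against 3.91% of 27025 genes. The letters CACGTG, the E-box bound by MYC, occurred in 3 of the 29 (Aldh18a1, Cbs and Slc43a1), against 6.86% of genes. A match is a description of these letters, not a binding site.

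Libraries held 27485111 to 38761363 counted reads, and 1 read corresponded to 0.0249 to 0.0371 CPM (read counts scaled to a common library size). Of the haematopoietic markers, Kit, Myb, Runx1, Gata2 and Meis1 were well expressed in every group (Kit at 631, 633 and 1167 CPM in lung, bone marrow and culture). Cd34, Flt3, Itgam, Csf1r and Cd33 averaged under 10 CPM in every group, Hoxa9 had no reads in lung and culture, and Klf1, an erythroid factor, was at 289, 301 and 306 CPM in lung, bone marrow and culture. All 10 neutrophil markers had reads in every group and summed to 11.5 to 83.5 CPM in lung, 336 to 2060 CPM in bone marrow and 1.28 to 2.43 CPM in culture. Of 10 resident macrophage markers, 10, 9 and 5 had reads in lung, bone marrow and culture (C1qa and C1qc were at 0 in culture, Marco in bone marrow), and they summed to 4.96 to 8.75, 16.5 to 18.7 and 2.8 to 3.05 CPM. Of 7 lung epithelium markers, 7, 5 and 5 had reads, and they summed to 14.5 to 82.6, 0.547 to 0.712 and 0.556 to 1.02 CPM. In bulk libraries such as these, fewer cells of a type and less RNA per cell cannot be told apart.

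Of the 35 members, 33 passed the filter on low counts and were tested. The other two are Cbs and Bcat1. Cbs, the first enzyme of the transsulfuration route, had 9, 4 and 14 reads in the 3 lung, 3 bone marrow and 3 culture libraries together. Bcat1, the cytosolic branched-chain transaminase, had 3, 2 and 0 reads. Per kilobase of annotated exon, Asns was the most abundant member in all 3 groups, at 183 ± 8.29 CPM per kilobase in lung, 164 ± 13.1 in bone marrow and 431 ± 17.6 in culture (mean ± SD, n = 3). Shmt2 followed in each group, at 141 ± 12.5, 115 ± 9.60 and 257 ± 3.20 CPM per kilobase. Among transporters Slc7a5 and Slc3a2 led per kilobase, at 97.7 and 82.5 in lung, 69.6 and 63.9 in bone marrow and 149 and 149 in culture.

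**Figure D1:**
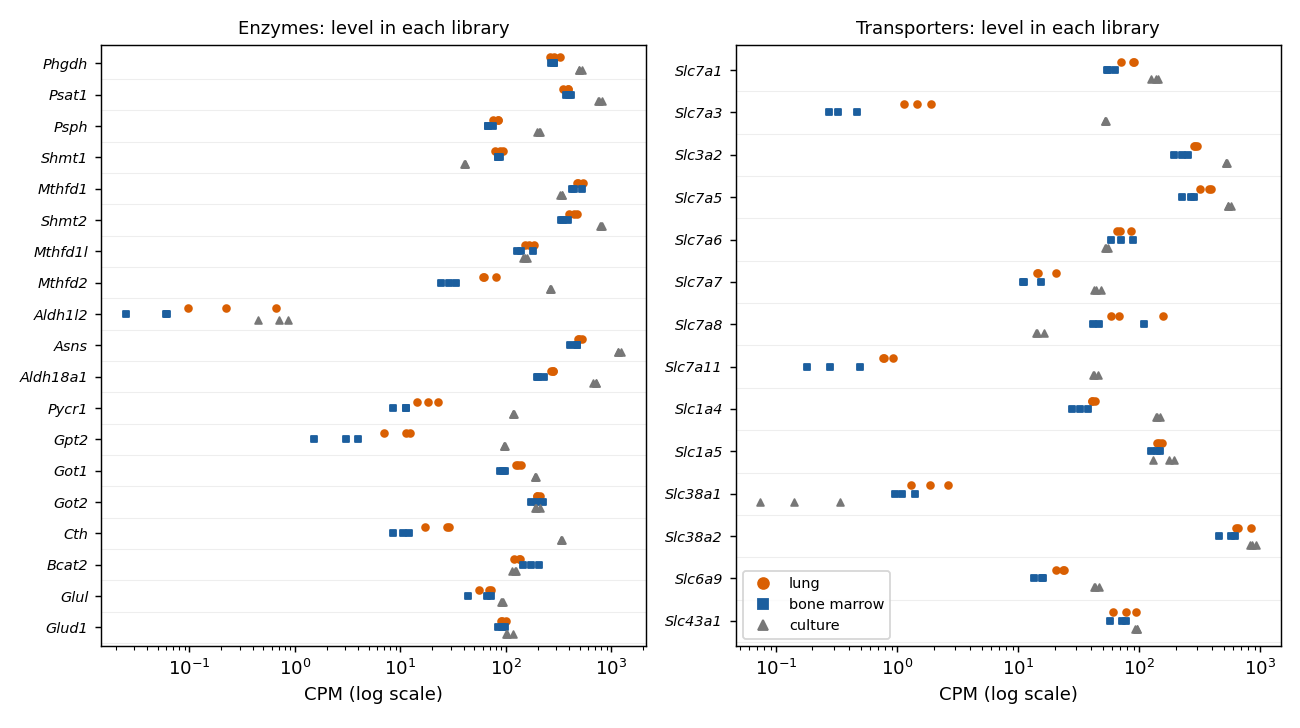
Level of each of the 33 tested members in each library, in CPM on a logarithmic axis, enzymes on the left and transporters on the right; each point is a library of cells from lung, bone marrow or culture. Culture points lie to the right of the tissue points for most genes, and Shmt1, Mthfd1, Slc7a8 and Slc38a1 show the opposite order, with Slc7a6 closer together.

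Cells from both tissues carried less RNA of most of these genes than cultured cells did. Against culture, bone marrow was lower in 24 of the 33 tested members and higher in 6, where 29.8% and 30.7% of all 15066 genes tested were called lower and higher. Lung was lower in 20 and higher in 5, against 27% and 27.9% of all genes. In either direction 60.5% of all genes were called in bone marrow and 54.9% in lung. The median log2 change of the 33 was -1.10 in bone marrow and -0.80 in lung, and of all genes 0.05 and 0.02. A gene was called at a Benjamini-Hochberg adjusted p under 0.05 in edgeR's quasi-likelihood test. Every adjusted p of a gene below comes from that test unless another is named, and log2 changes carry standard errors. Both comparisons use the same 3 culture libraries.

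**Figure D2:**
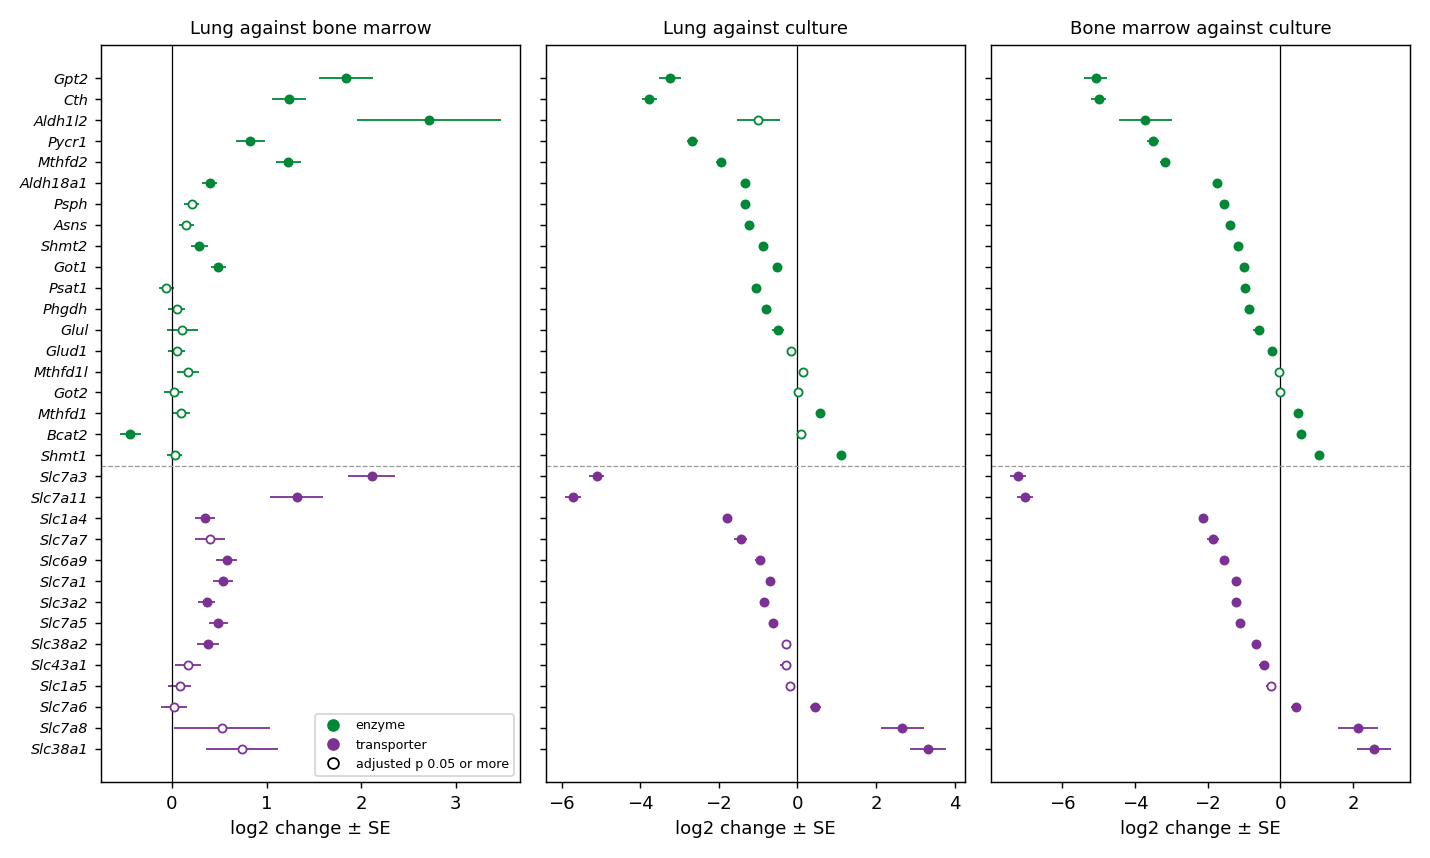
Fitted log2 change (point) and its standard error (bar) of each tested member in the 3 comparisons, with enzymes above and transporters below the dashed line, each ordered by the change in bone marrow against culture; open points have an adjusted p of 0.05 or more. Slc7a3 and Slc7a11 lie farthest to the left against culture and Gpt2 and Cth follow among the enzymes.

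Serine synthesis was lower in both tissues, and all 3 of its genes fell. Psat1, the transaminase of the route and its gene with the highest CPM, had 388, 351 and 392 CPM in lung replicates 1 to 3, 371, 415 and 392 CPM in bone marrow and 745, 767 and 813 CPM in culture. No tissue library came near a culture library. The log2 change was -1.04 ± 0.08 in lung (adjusted p = 2e-07) and -0.98 ± 0.08 in bone marrow (adjusted p = 2.3e-07) against culture. Phgdh, which catalyses the first step, had log2 changes of -0.80 in lung and -0.86 in bone marrow (adjusted p = 4.8e-06 and 2e-06), and the phosphatase Psph -1.33 and -1.55 (adjusted p = 2.9e-08 and 5.8e-09). None of the 3 passed in lung against bone marrow (log2 changes of 0.05, -0.06 and 0.21 for Phgdh, Psat1 and Psph). Psph shares 10.4% of its exon bases with the abundant Cct6a on the opposite strand, and its reads cannot be told apart there because the deposited files are named as unstranded counts.

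Among one-carbon enzymes, the mitochondrial Mthfd2 and Shmt2 were lower in tissue cells than in culture, and the cytosolic Shmt1 and Mthfd1 were higher. Not all mitochondrial enzymes were lower. Mthfd1l did not pass, and Mthfd2l, which is outside the 35 members, was higher in lung (log2 change 0.59) and bone marrow (1.20). The mitochondrial Mthfd2, which oxidises methylene-folate, had 62.7, 61.3 and 81.2 CPM in lung, 29.2, 24.4 and 33.9 CPM in bone marrow and 260, 266 and 261 CPM in culture. The 3 groups did not overlap. The log2 change was -1.94 ± 0.13 in lung and -3.17 ± 0.13 in bone marrow against culture (adjusted p = 7.9e-08 and 1.4e-09), and 1.23 ± 0.13 in lung against bone marrow (adjusted p = 3.6e-05). Shmt2, the mitochondrial serine hydroxymethyltransferase, had 439, 397 and 475 CPM in lung, 389, 330 and 349 CPM in bone marrow and 787, 802 and 806 CPM in culture. Its 3 groups did not overlap either, with log2 changes of -0.87 and -1.16 in lung and bone marrow against culture. Shmt2 was 0.29 ± 0.09 higher on the log2 scale in lung than in bone marrow (adjusted p = 0.024). That call was lost when either of culture replicates 1 and 2, of bone marrow replicates 2 and 3, or of lung replicates 1 and 3 was left out (adjusted p from 0.053 to 0.11). The call was also lost when only the 6 lung and bone marrow libraries were fitted (adjusted p = 0.065).

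The cytosolic Shmt1 and Mthfd1 moved the other way from Mthfd2 and Shmt2. Shmt1 had 78.9, 88.7 and 94.2 CPM in lung, 87.7, 85.0 and 83.3 CPM in bone marrow and 40.3, 40.8 and 41.2 CPM in culture. Every tissue library was above every culture library, with log2 changes of 1.10 ± 0.09 in lung (adjusted p = 2.5e-07) and 1.06 ± 0.09 in bone marrow (adjusted p = 2.3e-07). Mthfd1, the trifunctional cytosolic enzyme, had 487, 477 and 533 CPM in lung, 521, 425 and 446 CPM in bone marrow and 327, 340 and 338 CPM in culture (log2 changes 0.57 ± 0.09 and 0.47 ± 0.09). The tissue libraries were again all above culture. Neither gene passed in lung against bone marrow. Shmt1 lies on chromosome 11 from 60788104 to 60811718 (GRCm38) and shares 4.7% of its exon bases with Smcr8 on the opposite strand.

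The make-up of the one-carbon RNA differed between the groups. Per kilobase, Shmt2 exceeded Shmt1 6.28 ± 0.684 times in lung, 5.21 ± 0.345 times in bone marrow and 24.5 ± 0.107 times in culture (mean ± SD, n = 3). Mthfd2 over Mthfd1 was 0.174 ± 0.0174 in lung, 0.0804 ± 0.0143 in bone marrow and 0.998 ± 0.0155 in culture. These ratios are given as descriptions, since they combine genes already tested. Mthfd1l, which makes formate in mitochondria, did not pass in any comparison, at 168 ± 16.9, 149 ± 28.3 and 152 ± 5.70 CPM in lung, bone marrow and culture, but its log2 change in lung against bone marrow (0.17, adjusted p = 0.30) reached adjusted p = 0.018 without bone marrow replicate 1. Aldh1l2, the mitochondrial formyl-folate dehydrogenase, was close to undetected, with 35, 5 and 59 reads in the 3 lung, 3 bone marrow and 3 culture libraries. It was lower in bone marrow than in culture (adjusted p = 0.00057). It was higher in lung than in bone marrow (adjusted p = 0.02), a call lost without lung replicate 1 (0.15), bone marrow replicate 2 (0.053) or bone marrow replicate 3 (0.061). The call was also lost in the limma-voom test (adjusted p = 0.17). Against culture, lung Aldh1l2 did not pass (adjusted p = 0.14) but did without lung replicate 1 (0.011) or in the limma-voom test (0.02). Lung replicate 1 held 0.655 CPM of it, against 0.0979 and 0.221 CPM in lung replicates 2 and 3, and also the highest summed lung epithelium markers (82.6 CPM, with 38.2 and 14.5 CPM in the others). Their part in the result was not tested. Aldh1l2 also shares 14.1% of its exon bases with D10Wsu102e on the opposite strand, which averaged 37.8 CPM.

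**Figure D3:**
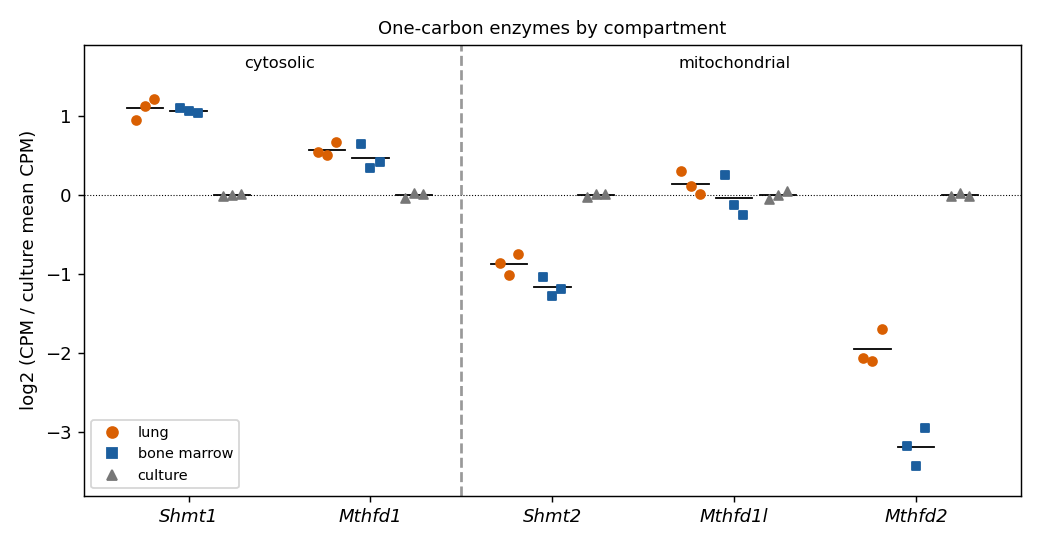
Log2 of CPM over the culture mean for 5 one-carbon enzymes in each library, cytosolic on the left and mitochondrial on the right of the dashed line; points are libraries and short lines are group means of the log2 values. Shmt1 and Mthfd1 lie above zero in all 6 tissue libraries, and Shmt2 and Mthfd2 below zero. The mitochondrial Mthfd1l lies above zero in the lung libraries and on both sides of it in bone marrow.

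Asparagine and proline synthesis were lower in both tissues. Asns, asparagine synthetase, had 524, 495 and 479 CPM in lung, 472, 468 and 408 CPM in bone marrow and 1146, 1155 and 1233 CPM in culture. Its log2 change was -1.24 ± 0.08 in lung and -1.39 ± 0.08 in bone marrow against culture (adjusted p = 5.7e-08 and 1.4e-08). The lung libraries all lay above the bone marrow ones, yet the difference of 0.15 ± 0.08 did not pass (adjusted p = 0.18). Aldh18a1, which makes the proline precursor from glutamate, had 282, 268 and 281 CPM in lung, 230, 197 and 202 CPM in bone marrow and 669, 716 and 709 CPM in culture. Its groups did not overlap, with log2 changes of -1.33 and -1.74 in lung and bone marrow against culture. Pycr1, the mitochondrial reductase of the last step, had 22.7, 14.5 and 18.2 CPM in lung, 11.3, 8.58 and 11.2 CPM in bone marrow and 119, 117 and 116 CPM in culture. The change of Pycr1 was -2.67 ± 0.15 in lung and -3.50 ± 0.16 in bone marrow against culture, again with no overlap. Both proline genes were higher in lung than in bone marrow, by 0.40 ± 0.08 for Aldh18a1 and 0.83 ± 0.15 for Pycr1 (adjusted p = 0.0031 and 0.0021).

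Cth, the enzyme that releases cysteine from cystathionine, had one of the largest falls. It had 28.7, 17.1 and 27.5 CPM in lung, 10.6, 8.42 and 12.1 CPM in bone marrow and 333, 331 and 337 CPM in culture. The groups were wide apart, with log2 changes of -3.77 ± 0.19 in lung (adjusted p = 6.2e-08) and -5.00 ± 0.20 in bone marrow (adjusted p = 9e-09). Lung exceeded bone marrow by 1.24 ± 0.18 on the log2 scale (adjusted p = 0.0012). Cth lies on chromosome 3 from 157894248 to 157925077 (GRCm38).

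The transaminases differed among themselves. Gpt2, the mitochondrial alanine transaminase, had 12.2, 7.01 and 11.4 CPM in lung, 3.96, 1.52 and 3.06 CPM in bone marrow and 97.4, 96.6 and 96.2 CPM in culture. No groups overlapped. Its log2 change was -3.24 ± 0.27 in lung, -5.08 ± 0.31 in bone marrow, and 1.84 ± 0.29 in lung against bone marrow (adjusted p = 7e-06, 5.4e-07 and 0.0025). The cytosolic aspartate transaminase Got1 had log2 changes of -0.53 in lung and -1.01 in bone marrow against culture, and was 0.49 ± 0.08 higher in lung than in bone marrow (adjusted p = 0.00085). Its mitochondrial partner Got2 had 209, 196 and 198 CPM in lung, 225, 198 and 172 CPM in bone marrow and 189, 193 and 213 CPM in culture. The 3 groups overlapped, and Got2 passed in no comparison (log2 changes of 0.02, 0.02 and 0.00). Per kilobase, Got1 over Got2 was 1.24 ± 0.0957 in lung, 0.903 ± 0.0661 in bone marrow and 1.82 ± 0.0841 in culture. Bcat2, the mitochondrial branched-chain transaminase, had 120, 136 and 132 CPM in lung, 173, 207 and 146 CPM in bone marrow and 122, 124 and 114 CPM in culture. Bone marrow stood above both other groups without overlap: Bcat2 was 0.55 ± 0.11 higher in bone marrow than in culture (adjusted p = 0.00072) and lower in lung than in bone marrow (log2 change -0.44 ± 0.11, adjusted p = 0.01). Lung and culture overlapped (adjusted p = 0.44).

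The glutamine and glutamate enzymes were slightly lower in part of the comparisons. Glud1, glutamate dehydrogenase, had 90.5, 101 and 92.1 CPM in lung, 92.1, 98.1 and 83.9 CPM in bone marrow and 101, 103 and 116 CPM in culture. Bone marrow lay below all culture libraries, by a narrow margin. It was lower in bone marrow than in culture, with a log2 change of -0.22 ± 0.09 (adjusted p = 0.043), a call lost in 11 of 18 alternatives. These include leaving out culture replicate 2 (adjusted p = 0.062) or 3 (0.18), bone marrow replicate 1 (0.066) or 3 (0.16), or lung replicate 2 (0.052). Glul, glutamine synthetase, had log2 changes of -0.49 in lung and -0.60 in bone marrow against culture (adjusted p = 0.021 and 0.0065). The lung call was lost without culture replicate 3 (adjusted p = 0.058) or lung replicate 3 (0.083).

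Among the transporters, the cationic carriers were lower in both tissues. Slc7a3, a carrier of arginine and lysine, had 1.91, 1.14 and 1.46 CPM in lung, 0.327, 0.465 and 0.273 CPM in bone marrow and 52.2, 52.7 and 53.0 CPM in culture. These came from 154, 37 and 4614 reads in all. The log2 change was -5.11 ± 0.18 in lung, -7.22 ± 0.21 in bone marrow, and 2.11 ± 0.25 in lung against bone marrow (adjusted p = 3.6e-10, 6.8e-11 and 8.4e-05). Slc7a1, the widely expressed carrier of the same substrates, had 91.5, 89.5 and 71.5 CPM in lung, 63.6, 55.8 and 53.9 CPM in bone marrow and 137, 125 and 144 CPM in culture. The groups of both genes did not overlap. The log2 change of Slc7a1 was -0.69 ± 0.11 in lung and -1.23 ± 0.11 in bone marrow. Per kilobase, Slc7a3 made up 5.19% ± 1.26 of the RNA of this pair in lung, 1.85% ± 0.544 in bone marrow and 54.2% ± 1.75 in culture (SD, n = 3). Slc7a3 lies on chromosome X from 101079210 to 101086020 (GRCm38).

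The heavy chain Slc3a2 and its light chains moved in different directions. Slc3a2 had 300.2, 289 and 284 CPM in lung, 226, 255 and 196 CPM in bone marrow and 521, 523 and 531 CPM in culture, a log2 change of -0.85 ± 0.09 in lung and -1.22 ± 0.09 in bone marrow. Its most abundant partner Slc7a5 (LAT1), which exchanges large neutral amino acids such as leucine, had 392, 377 and 318 CPM in lung, 283, 266 and 226 CPM in bone marrow and 541, 540 and 578 CPM in culture. Neither gene's groups overlapped, and the log2 change of Slc7a5 was -0.61 ± 0.10 in lung and -1.10 ± 0.10 in bone marrow. Both were higher in lung than in bone marrow, Slc3a2 by 0.37 ± 0.09 and Slc7a5 by 0.49 ± 0.10 on the log2 scale (adjusted p = 0.0094 and 0.0037).

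Slc7a11 (xCT), which imports cystine in exchange for glutamate, was scarce in tissue cells. It had 0.917, 0.783 and 0.759 CPM in lung, 0.179, 0.279 and 0.497 CPM in bone marrow and 41.9, 42.0 and 45.8 CPM in culture, from 83, 35 and 3784 reads in all. No library of one group reached another group. The log2 change was -5.71 ± 0.20 in lung and -7.03 ± 0.22 in bone marrow against culture (adjusted p = 3.6e-10 and 7e-11). In lung against bone marrow it was 1.32 ± 0.28 higher (adjusted p = 0.005), a call lost when only the 6 lung and bone marrow libraries were fitted (adjusted p = 0.053). Slc7a7, a light chain that carries cationic and neutral amino acids, had log2 changes of -1.44 in lung and -1.85 in bone marrow against culture. In lung against bone marrow Slc7a7 did not pass (0.40 ± 0.16, adjusted p = 0.091), and passed without bone marrow replicate 3 (adjusted p = 0.018) or with no filter on low counts (0.017). It shares 7.0% of its exon bases with Oxa1l on the opposite strand.

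The light chains Slc7a8 and Slc7a6 were higher in tissue cells. Slc7a8 (LAT2), a neutral amino acid exchanger, had 68.0, 159 and 58.7 CPM in lung, 46.4, 110 and 41.3 CPM in bone marrow and 14.4, 16.3 and 14.2 CPM in culture. Every tissue library was above every culture library, and replicate 2 was the highest library in each tissue. The log2 change was 2.67 ± 0.55 in lung (adjusted p = 0.0057) and 2.14 ± 0.55 in bone marrow (adjusted p = 0.013), and 0.53 ± 0.51 in lung against bone marrow (adjusted p = 0.49). The summed fibroblast and stroma markers were also highest in replicate 2 of each tissue, at 230, 267 and 181 CPM in lung, 174, 212 and 141 CPM in bone marrow and 239, 250 and 255 CPM in culture. Of these 7 markers, 7, 6 and 4 had reads in lung, bone marrow and culture, and Pdgfra was at 0 in bone marrow and culture. Col1a2 and Dcn made up most of the sums and were also expressed in culture, at 217 and 30.8 CPM. In lung, Col1a1, Col3a1, Pdgfra and Cxcl12 were instead highest in replicate 1, and Lum in replicate 3. In bone marrow, Col1a1, Col3a1 and Cxcl12 were highest in replicate 2, and Lum in replicate 1. Resident macrophage markers were lowest in replicate 2 of each tissue (4.96 CPM in lung and 16.5 CPM in bone marrow). The part of these markers in the Slc7a8 result was not tested. Slc7a6, a light chain with cationic and neutral substrates, had 69.8, 66.2 and 85.0 CPM in lung, 58.1, 70.7 and 88.5 CPM in bone marrow and 55.7, 53.7 and 52.6 CPM in culture (log2 changes 0.45 ± 0.14 and 0.42 ± 0.14; adjusted p = 0.015 and 0.017). The lung call was lost without culture replicate 3 (adjusted p = 0.053) or lung replicate 3 (0.072). The bone marrow call was lost without culture replicate 2 (0.051), culture replicate 3 (0.06) or bone marrow replicate 3 (0.073), the library with the most neutrophil marker RNA (2060 CPM). The part of these markers in the result was not tested.

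Per kilobase, Slc7a8 made up 13.4% ± 6.46 of the light chain RNA in lung, 12.5% ± 6.10 in bone marrow and 1.66% ± 0.172 in culture (SD, n = 3). Slc7a5 made up 70.9% ± 4.72, 68.0% ± 6.13 and 82.6% ± 0.314, and Slc7a11 0.043%, 0.0229% and 1.72%. The 5 light chains together exceeded the heavy chain 1.67 ± 0.173 times in lung, 1.61 ± 0.0642 times in bone marrow and 1.21 ± 0.031 times in culture.

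**Figure D4:**
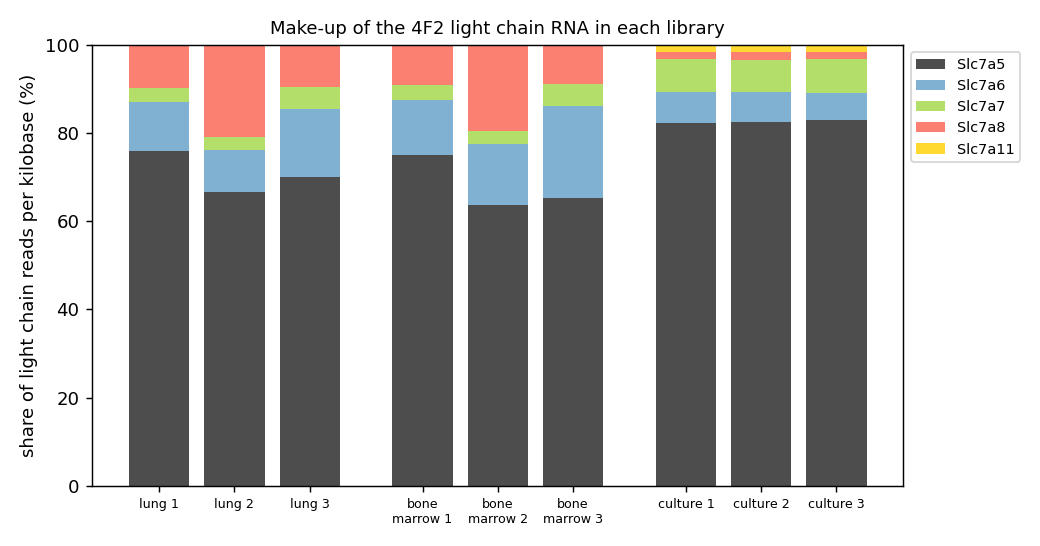
Share of each of the 5 light chains in their summed reads per kilobase, in percent, in each library of lung, bone marrow and culture. Slc7a5 fills most of every bar, and Slc7a8 takes 8.85% to 20.9% of the tissue libraries and 1.51% to 1.84% of the culture libraries.

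Sodium-coupled and other neutral transporters were mixed. Slc38a2 (SNAT2), a glutamine and alanine importer and the transporter with the most reads, had 847, 637 and 658 CPM in lung, 617, 455 and 575 CPM in bone marrow and 829, 860 and 920 CPM in culture. Bone marrow lay below both other groups, and lung and culture overlapped. The log2 change was -0.66 in bone marrow against culture (adjusted p = 0.00054), and its -0.28 ± 0.12 in lung did not pass (adjusted p = 0.07). That lung value passed in 6 of 18 alternatives, among them without lung replicate 1 (adjusted p = 0.009) or bone marrow replicate 2 (0.034). Slc38a2 was 0.38 ± 0.12 higher in lung than in bone marrow (adjusted p = 0.042), a call lost in 10 of 18 alternatives. Among these were leaving out any 1 of the 9 libraries except bone marrow replicate 1 (adjusted p from 0.051 to 0.17). Its relative Slc38a1 (SNAT1) was scarce, at 2.65, 1.31 and 1.87 CPM in lung, 1.10, 0.96 and 1.42 CPM in bone marrow and 0.0742, 0.339 and 0.142 CPM in culture, from 200, 125 and 17 reads. The tissues overlapped with each other and not with culture. Slc38a1 rose by 3.33 ± 0.46 in lung and 2.58 ± 0.47 in bone marrow against culture on the log2 scale (adjusted p = 4.3e-05 and 0.00032).

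Slc1a4, an exchanger of small neutral amino acids such as serine and alanine, had 40.5, 42.8 and 41.2 CPM in lung, 32.2, 38.1 and 27.7 CPM in bone marrow and 138, 141 and 150 CPM in culture. The groups did not overlap. Its log2 change was -1.78 ± 0.11 in lung and -2.13 ± 0.11 in bone marrow. It was 0.35 ± 0.11 higher in lung than in bone marrow (adjusted p = 0.029), and this call was lost on leaving out either of culture replicates 1 and 2, of bone marrow replicates 1 and 3, or of lung replicates 2 and 3 (adjusted p from 0.052 to 0.12). The call was also lost with upper-quartile scaling (adjusted p = 0.053) and when only the 6 lung and bone marrow libraries were fitted (0.091). The related glutamine exchanger Slc1a5 (ASCT2) had 154, 141 and 146 CPM in lung, 126, 141 and 149 CPM in bone marrow and 193, 178 and 130 CPM in culture. It overlapped in all comparisons and passed in none (adjusted p = 0.22, 0.076 and 0.65 for lung against culture, bone marrow against culture and lung against bone marrow). Culture replicate 3 was the low library of its group, and without it Slc1a5 was lower in lung (adjusted p = 0.012) and in bone marrow (adjusted p = 0.0029) than in culture. Without bone marrow replicate 3 the bone marrow value also passed, at adjusted p = 0.05 after rounding. With no filter on low counts the bone marrow value passed too (adjusted p = 0.027).

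Slc6a9 (GLYT1), the glycine importer, had 23.4, 24.2 and 20.5 CPM in lung, 15.7, 13.5 and 16.2 CPM in bone marrow and 46.7, 42.7 and 43.2 CPM in culture. The groups were separate in every comparison, with log2 changes of -0.96 ± 0.11 in lung and -1.55 ± 0.11 in bone marrow against culture, and 0.58 ± 0.11 in lung against bone marrow (adjusted p = 0.0024). Slc43a1 (LAT3), a facilitated carrier of large neutral amino acids, had 61.0, 78.0 and 94.1 CPM in lung, 57.4, 71.6 and 78.0 CPM in bone marrow and 96.3, 95.2 and 92.8 CPM in culture. Bone marrow lay below culture, and lung overlapped both. Its log2 change was -0.46 in bone marrow (adjusted p = 0.016), which became adjusted p = 0.054 without bone marrow replicate 1. Its -0.29 ± 0.14 in lung did not pass (adjusted p = 0.11), and passed in 4 of 18 alternatives, among them without lung replicate 3 (adjusted p = 0.011).

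Set side by side, both enzymes and transporters were mostly lower in the tissues than in culture. In bone marrow 14 of 19 tested enzymes were lower and 3 higher (median log2 change -1.01), and 10 of 14 transporters were lower and 3 higher (median -1.16). In lung 12 enzymes were lower and 2 higher (median -0.87), and 8 transporters were lower and 3 higher (median -0.65). The shares over all 15066 genes tested were 29.8% lower and 30.7% higher in bone marrow (median 0.05). In lung they were 27% lower and 27.9% higher (median 0.02). Summed over all members of a class, enzymes held 3310 to 3572 CPM in lung, 2934 to 3323 CPM in bone marrow and 6063 to 6382 CPM in culture. Transporters held 1801 to 2068, 1468 to 1538 and 2709 to 2802 CPM. The spread within a class was wide: changes in bone marrow against culture ran from -5.08 to 1.06 among enzymes and from -7.22 to 2.58 among transporters. The difference between the classes was not tested.

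Cells from lung had more RNA of part of the genes than cells from bone marrow. In that comparison 16 of 33 members were higher (14.2% of all genes were) and 1, Bcat2, was lower (11.1% of all genes were, and 25.3% in either direction), with a median log2 change of 0.37 beside -0.01 over all genes. Transporters were higher in 8 of 14 (median 0.44) and enzymes in 8 of 19 (median 0.17). The enzyme median was 0.07 without bone marrow replicate 3 and 0.25 without bone marrow replicate 1, and the transporter median stayed at 0.39 to 0.50 when any 1 library was left out. The libraries of lung lay above all those of bone marrow in 18 members, 10 enzymes and 8 transporters, and below in 1, where 18.5% and 18.1% of all genes did. Among genes that averaged 1 CPM or more in lung, the largest rises were those of Slc7a3, Gpt2, Cth and Mthfd2, given above with their values. Slc7a1 was also higher, by 0.54 ± 0.11 (adjusted p = 0.0031). Summed neutrophil and macrophage markers were higher in bone marrow and summed epithelium markers higher in lung, as given above. All 7 endothelium markers had reads in both tissues and summed to 124 to 144 CPM in lung and 117 to 141 CPM in bone marrow, most of it Egfl7. The defining endothelial genes Cdh5, Tek, Cldn5 and Pecam1 averaged 1.64, 2.28, 3.32 and 5.20 CPM in lung, against 0.0289, 0.0198, 0.0182 and 0.627 CPM in bone marrow. The part of these markers in the differences was not tested. This comparison shares the bone marrow libraries with that of bone marrow against culture.

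Other listed genes of the same routes gave further values. Of 34 further enzymes tested (36 counted), 17 (50%) were higher and 8 (23.5%) lower in lung than in culture. In bone marrow 18 (52.9%) were higher and 7 (20.6%) lower than in culture. Of all genes, 27.9% were higher and 27% lower in lung, and 30.7% and 29.8% in bone marrow. The median log2 change of the further enzymes was 0.33 in lung and 0.32 in bone marrow. Gcsh, the H protein of the glycine cleavage system, had 67.1, 73.2 and 82.7 CPM in lung, 91.3, 107 and 100.1 CPM in bone marrow and 27.9, 26.9 and 29.9 CPM in culture, a rise of 1.40 in lung and 1.82 in bone marrow on the log2 scale. Mthfd2l, the mitochondrial paralogue of Mthfd2, stood at 57.4 ± 2.76 CPM in lung, 87.9 ± 11.7 CPM in bone marrow and 38.2 ± 1.49 CPM in culture, the reverse of the order of Mthfd2. It rose by 1.20 on the log2 scale in bone marrow against culture (adjusted p = 3.4e-07) and changed by -0.61 in lung against bone marrow (adjusted p = 0.00096). Enzymes that use folate carbon for nucleotides were also higher against culture: thymidylate synthase Tyms by 0.61 in lung and 0.99 in bone marrow, and the purine enzyme Gart by 0.72 in each (chosen after their values were seen). The argininosuccinate lyase Asl, which releases arginine, averaged 24.6 CPM in lung, 25.4 CPM in bone marrow and 56.7 CPM in culture, with log2 changes of -1.20 in lung and -1.16 in bone marrow against culture (adjusted p = 2e-07 in each). Pycrl, a cytosolic paralogue of Pycr1, rose by 1.01 in lung and 1.10 in bone marrow.

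Of 18 further transporters tested (27 counted), 8 (44.4%) were higher and 4 (22.2%) lower in lung than in culture. In bone marrow 7 (38.9%) were higher and 4 (22.2%) lower than in culture. Of all genes, 27.9% were higher and 27% lower in lung, and 30.7% and 29.8% in bone marrow. The glutamate importer Slc1a3 rose by 1.40 and 2.03 on the log2 scale and Slc7a4 by 1.09 and 1.26. The glutamine transporter Slc38a5 changed by -1.03 and -1.30 and Slc43a3 by -0.49 and -0.99. In lung against bone marrow 2 of the further enzymes were higher and 7 lower, with Gcsh among the lower (log2 change -0.42). Of the further transporters 2 were higher, Slc43a3 (0.50) and Slc38a5 (0.27, adjusted p = 0.05 after rounding), and Slc1a3 was lower (-0.63). In this comparison 5.88% of the further enzymes were higher and 20.6% lower, and 11.1% and 5.56% of the further transporters. Of all genes 14.2% were higher and 11.1% lower. The transporter shares stand for 2 and 1 of 18 genes, too few to set apart from the shares of all genes.

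**Figure D5:**
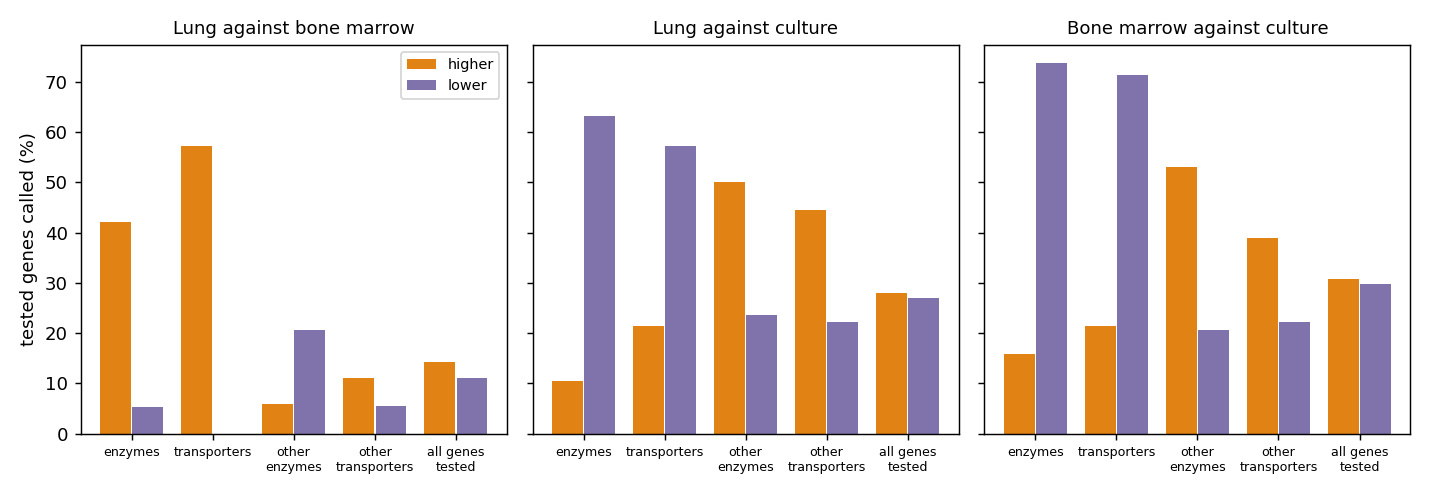
Share of tested genes called higher or lower, in percent, in the 3 comparisons for member enzymes (19) and transporters (14), further enzymes (34) and transporters (18) of the same routes, and all 15066 genes. In lung and bone marrow against culture, 63.2% and 73.7% of member enzymes are lower, and 50% and 52.9% of further enzymes are higher.

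Most listed genes of the amino acid and stress response, regulators and induced genes alike, were also lower in tissue cells than in culture. Of 14 genes of the amino acid and stress response, 10 (71.4%) were lower and 1 higher in lung than in culture. In bone marrow 13 (92.9%) were lower and 1 higher than in culture. Of all genes, 27% were lower and 27.9% higher in lung, and 29.8% and 30.7% in bone marrow. In lung against bone marrow 10 of the 14 were higher and 1 lower, where 14.2% and 11.1% of all genes were. Atf4 had 216, 188 and 227 CPM in lung, 139, 92.9 and 109 CPM in bone marrow and 302, 281 and 273 CPM in culture. The groups did not overlap, with log2 changes of -0.44 in lung and -1.33 in bone marrow against culture and 0.89 in lung against bone marrow (adjusted p = 0.0092, 1.7e-06 and 0.00048). Trib3, a pseudokinase induced by ATF4, changed by -2.86 in lung and -4.92 in bone marrow against culture and by 2.06 in lung against bone marrow. Chac1, which degrades glutathione, changed by -3.01 in lung and -5.00 in bone marrow against culture. The stress-induced factor Atf3 had 12.2, 10.6 and 26.3 CPM in lung, 0.684, 0.96 and 0.994 CPM in bone marrow and 5.90, 6.68 and 5.40 CPM in culture. It was the 1 gene of the 14 called higher in lung than in culture (log2 change 1.45, adjusted p = 0.0017). Myc, whose protein drives growth and amino acid uptake in many cells, had 521, 592 and 529 CPM in lung, 754, 691 and 736 CPM in bone marrow and 591, 624 and 585 CPM in culture. It was higher in bone marrow than in culture (log2 change 0.28, adjusted p = 0.0071) and lower in lung than in bone marrow (-0.41, adjusted p = 0.0026), and did not pass in lung against culture (-0.13, adjusted p = 0.16).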

How the data were processed

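RNA of 9 libraries (3 each of cells from lung, bone marrow and culture) was extracted with the RNeasy Plus Micro kit and made into libraries with the SMART-seq and ThruPLEX kits, per the labels' protocols. The authors deposited unnormalized counts of reads for each gene symbol; STAR, bcl2fastq and mm10 are named in the submitters' processing notes, and the counter and its annotation were not stated there. Genes were filtered with filterByExpr (15066 of 55291 kept), scaled with TMM and tested as contrasts in 1 edgeR 4.0.16 quasi-likelihood fit over all 9 libraries (R 4.3.3), adjusting over all genes tested. A standard error is the log2 change divided by the square root of its F statistic. CPM per kilobase divides by the union of exons in GENCODE M21 (GRCm38), where all 35 members were found. The code was tested on simulated data. Members, lists and the naming rule were chosen with earlier results of these data known. The rule gives library values for the 3 largest called rises and falls of each class and comparison at 1 CPM or more and for the gene with the highest CPM of each role, and names the 2 largest called changes of other lists at 10 CPM. One further enzyme that this rule names is not reported here. Alternatives were other scalings (RLE, upper quartile, none) and filters, DESeq2 1.42.0, limma-voom (limma 3.58.1), fits of 6 libraries, the replicate block and leaving out each library.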

Additional observations from a re-analysis of the deposited data

How the results depend on the processing

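Of 99 changes of single members, 18 gained or lost their call in at least 1 of 18 alternatives and none reversed while called. Medians of the classes kept their sign. The median log2 change of enzymes in bone marrow against culture was -0.94 with upper-quartile scaling and -0.95 with library size alone, instead of -1.01, while the median of all genes moved to 0.12 and 0.11. Leaving out 1 library gave 13 to 16 members higher and 1 lower in lung against bone marrow, 4 or 5 higher and 20 to 22 lower in lung against culture, and 5 or 6 higher and 22 to 24 lower in bone marrow against culture. The counts over all genes moved as well. They were 1430 to 2676 higher and 928 to 2084 lower in lung against bone marrow. In lung against culture they were 3469 to 4542 higher and 3673 to 4395 lower. In bone marrow against culture they were 3916 to 4713 higher and 4046 to 4633 lower. The enzyme median then ran from 0.07 (without bone marrow replicate 3) to 0.25 (without bone marrow replicate 1) in lung against bone marrow; the cause was not tested. Upper-quartile scaling gave 1796 genes higher and 2088 lower in lung against bone marrow, instead of 2138 and 1668. Fitting only the 6 libraries gave 11 members higher in lung against bone marrow, where 1400 of all 14574 genes tested were higher. Psph passed with DESeq2 (0.033). The replicate block gave 17 members higher and 1 lower in lung against bone marrow, 5 and 22 in lung against culture, and 6 and 24 in bone marrow against culture. Over all genes the block gave 2364 and 1769, 4246 and 4187, and 4608 and 4620, in the same order. With the block, Slc7a7 passed in lung against bone marrow (adjusted p = 0.017), and Slc38a2 and Slc43a1 in lung against culture (0.023 and 0.024). Slc7a8 in lung against bone marrow had adjusted p = 0.17 with the block, instead of 0.49. Libraries sharing a number had deviations from their group means that correlated at 0.03, 0.27 and 0.09 between lung and bone marrow. Libraries of different numbers correlated at -0.24 to 0.14. So few values cannot decide whether the numbers mark pairs. The labels do not explain the numbers, and the main fit did not pair libraries. Depth limits Aldh1l2, Slc38a1, Cbs and Bcat1, with 200 reads or fewer per group.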
